A study of Mus musculus with 42 samples.

Results

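The granins and the genes that process prohormones are 10 genes of the regulated secretory pathway, taken by symbol from the 9 deposited expression tables of this mouse colon study, out of 20462 genes that any table lists. They are the granins *Chga*, *Chgb*, *Scg2*, *Scg3*, *Scg5* and *Vgf*, the prohormone convertases *Pcsk1* and *Pcsk2*, the carboxypeptidase *Cpe* and the convertase inhibitor *Pcsk1n*. The tables hold 42 RNA-Seq libraries from C57/BL6 mice at least 8 weeks old, in 14 conditions. Mice without MTG16, a transcriptional corepressor encoded by *Cbfa2t3* (*Mtg16*-/-), and mice homozygous for the P209T change in it (T/T), which was made with CRISPR/Cas9 to weaken its binding of the E proteins E2A and HEB, were compared with WT littermates of their own colony. Both alleles are carried in all cells of the mouse. Chelation released crypts from the proximal colon, the 5 cm next to the cecum (2 *Mtg16*-/- and 2 WT libraries, 2 T/T and 2 WT) and from the distal colon, the 5 cm next to the anus (4 *Mtg16*-/- and 4 WT, 4 T/T and 3 WT). Distal crypts were also taken 4 days after 5 days of 2% dextran sulfate sodium (DSS, which injures the colonic epithelium) in the drinking water (4 *Mtg16*-/- and 3 WT, 3 T/T and 3 WT). Whole distal tumors came from mice given 10 mg/kg azoxymethane, a carcinogen, and 3 cycles of 3% DSS for 4 days with 16 days of water (3 T/T and 3 WT).

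Enteroendocrine cells, scattered singly through the crypt epithelium, store peptide hormones in dense-core granules and release them on stimulation. Granins are acidic proteins that help these granules form and that are themselves cut into peptides. Hormone precursors are cleaved in the granule at paired basic residues by the convertases PC1/3 (*Pcsk1*) and PC2 (*Pcsk2*), and carboxypeptidase E (*Cpe*) then trims the exposed basic residues. The 7B2 protein (*Scg5*) is needed for active PC2, and proSAAS (*Pcsk1n*) inhibits PC1/3. Neurons use the same machinery, so tissue that holds enteric neurons can add to these transcripts.

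RefSeq promoters (GRCm38.p6, 250 bases before the transcript start) were at hand for 8 of the 10 genes, *Cpe* and *Vgf* having no entry in the table used. They were searched on both strands for CANNTG, the E-box that E proteins bind, and TGACGTCA, the palindromic cyclic AMP response element. The motifs can share 2 letters at their ends, which they did in 30 of all promoters searched and in 0 of the members'. CANNTG was found in 6 of the 8, and in 66.2% of all 32851 promoters of that length. TGACGTCA was found in 3 of the 8, and in 1.55% of all promoters. The *Chga* stretch is shown because *Chga* was among the genes that differed between genotypes, and its capitals mark 3 CANNTG matches, which start 191, 179 and 116 bases before the RefSeq start (chr12:102554691-102554940, plus strand, outside the GENCODE exons of *Chga*). Promoters with at least 3 matches made up 12.2% of all. The other stretches show 30 bases around TGACGTCA, in capitals, in the genes whose levels differed most between colon segments (*Scg2* and *Pcsk1*) and in *Chgb*. The match starts 72 bases before the RefSeq start in *Chgb* (chr2:132781559-132781588, plus strand), 68 in *Scg2* (chr1:79440076-79440105, minus strand) and 78 in *Pcsk1* (chr13:75089768-75089797, plus strand). In GENCODE, whose transcripts begin further upstream, the *Chgb* and *Scg2* stretches lie in an annotated exon and the *Pcsk1* stretch does not. A match describes letters in this window and was not tested as a binding site.
Chga: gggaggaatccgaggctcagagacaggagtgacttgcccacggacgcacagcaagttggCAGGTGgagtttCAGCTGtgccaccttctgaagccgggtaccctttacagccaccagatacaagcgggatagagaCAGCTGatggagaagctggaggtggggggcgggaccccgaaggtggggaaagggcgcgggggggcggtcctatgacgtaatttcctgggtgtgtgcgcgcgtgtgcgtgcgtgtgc
Chgb: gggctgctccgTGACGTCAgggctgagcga
Scg2: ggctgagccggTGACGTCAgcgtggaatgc
Pcsk1: ccaggtagatcTGACGTCAagagatggctt

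Values are normalized counts, that is, reads per gene divided by a size factor of the library within its table, and each comparison was fitted within a table. Levels set side by side across tables rest on separate size factors. A gene was tested with limma on log2(normalized count + 1) if its mean was at least 10 over the libraries of a comparison, and was called when the Benjamini-Hochberg adjusted p over all genes tested was under 0.05. The 38 libraries whose whole reads could be recovered held 32231389 to 74661922 reads (median 46659625). The labels do not say that each library is a separate mouse, so p-values measure the spread between these libraries, which may be technical. Of the 10 genes, 9 were tested in most comparisons. *Pcsk2* passed the filter only in tumors, and *Vgf* failed it only in the comparison of distal T/T and WT crypts without DSS. The epithelial markers *Epcam*, *Cdh1*, *Krt8*, *Krt19* and *Vil1* summed to 400958 to 649653 in the tumors and 574789 to 755949 in the proximal crypts of the *Mtg16*-/- colony. Summed markers of enteric neurons and glia were at most 178 and 50 in crypts.

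One library went against its label. In the library labelled distal *Mtg16*-/- replicate 2, the mean log2 level of 20 genes high in distal WT crypts minus that of 20 genes high in proximal WT crypts was -7.86. The 8 libraries labelled proximal lay between -9.89 and -7.41, and the other 14 distal crypt libraries without DSS between 6.75 and 8.89. The 40 genes hold none of the 10 members, but do hold *Pcsk5* and *Nts*, which are described below, and they were chosen after the data were seen. The targeted gene *Cbfa2t3* was at 1095 in this library, against 424 to 694 in the other 3 distal *Mtg16*-/- libraries, 1027 to 1809 in their WT littermates and, in another table, 631 to 1057 in proximal *Mtg16*-/- crypts. The members' results for distal *Mtg16*-/- crypts are therefore given with and without this library.

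The segment comparison asks how WT distal crypts differ from WT proximal crypts (7 and 4 libraries of both colonies). The granin *Scg2* and the convertase *Pcsk1* formed opposite extremes. *Scg2*, which encodes secretogranin II, the precursor of secretoneurin, is a gene on chromosome 1 (ENSMUSG00000050711, GRCm38, 79434669 to 79440120, minus strand). It was at 10.3, 12.6, 5.57 and 15.5 in the proximal libraries, which is 7 to 16 reads, and between 203 and 298 (median 229) in the distal ones. All distal libraries lay far above all proximal ones, with a mean of 239 ± 34.4 (SD, n = 7) against 11.0 ± 4.19 (n = 4). The difference was 4.39 ± 0.22 on the log2 scale (SE, limma, adjusted p = 3.53e-09), and the exact permutation test gave p = 0.00303, the smallest it allows. *Pcsk1* (chromosome 13, 75089826 to 75134861, plus strand) went the other way, at 1951, 1618, 2346 and 1689 in proximal libraries and between 244 and 413 (median 331) in distal ones. Its groups did not overlap either, and distal crypts were lower by a log2 change of -2.49 ± 0.15 (limma, adjusted p = 1.25e-08), with means of 340 ± 59.0 and 1901 ± 329.

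The major granins moved with *Pcsk1* in direction and *Cpe* moved with *Scg2*. *Chga* (chromogranin A, chromosome 12) was at 4511, 3937, 4788 and 3807 in proximal crypts and between 2050 and 2675 in distal crypts, a log2 change of -0.84 ± 0.09 (limma, adjusted p = 4.15e-06). *Chgb* (chromogranin B, chromosome 2) was at 10295, 8546, 8842 and 7139 in proximal crypts and between 4748 and 6220 in distal ones, a change of -0.68 ± 0.10 (adjusted p = 0.000132). Neither granin's groups overlapped. *Cpe* (chromosome 8) was at 438, 451, 371 and 378 in proximal crypts and between 758 and 1037 in distal crypts, higher by 1.12 ± 0.10 (adjusted p = 6.34e-07), also without overlap. Over the 9 genes tested, 3 were called higher and 3 lower in distal crypts, where 42.1% of all genes tested were called, 20.1% higher and 22.0% lower. Groups without overlap were found for 2 higher and 3 lower genes, beside 14.1% and 15.9% of all genes. The remaining call was *Scg5*, at 57.9, 35.7, 91.6 and 57.2 in proximal crypts and between 67.0 and 163 in distal ones, which overlap (0.82 ± 0.31, adjusted p = 0.0458). The number that opens each library's identifier in the tables takes several values, and with it as a covariate *Scg5* was 0.47 (adjusted p = 0.57), and it kept its call in 4 of the 11 fits that left out 1 library (adjusted p 0.0563 to 0.161 in the other 7, and 0.0553 with no filter on low values). *Pcsk1n* (154 to 221 in proximal and 168 to 277 in distal crypts, change 0.18), *Scg3* (56.0 to 82.8 and 64.0 to 84.5, change 0.11) and *Vgf* (10.3 to 21.3 and 4.41 to 16.9, change -0.85, adjusted p = 0.0733) did not pass. With the identifier's number as a covariate *Vgf* was -1.68 (limma, adjusted p = 0.0339). Among these libraries number 5582 is only proximal and 5094 only distal. The covariate estimates of *Scg5* and *Vgf* thus come from number 4149, with 2 proximal and 2 distal libraries. Fitted within 4149 alone, *Vgf* was again -1.68 (limma, adjusted p = 0.0844). In bulk crypts a change in the number of cells of a type and in RNA per cell cannot be told apart, and the 9 enteroendocrine markers that are not members (*Neurod1*, *Neurog3*, *Pax6*, *Nkx2-2*, *Insm1*, *Isl1*, *Rfx6*, *Fev* and *Tph1*) summed to 1498 to 1992 in proximal and 1187 to 1573 in distal WT crypts. Of those 9 markers, 5 were called higher and 1 lower in distal crypts.

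**Figure D1:**
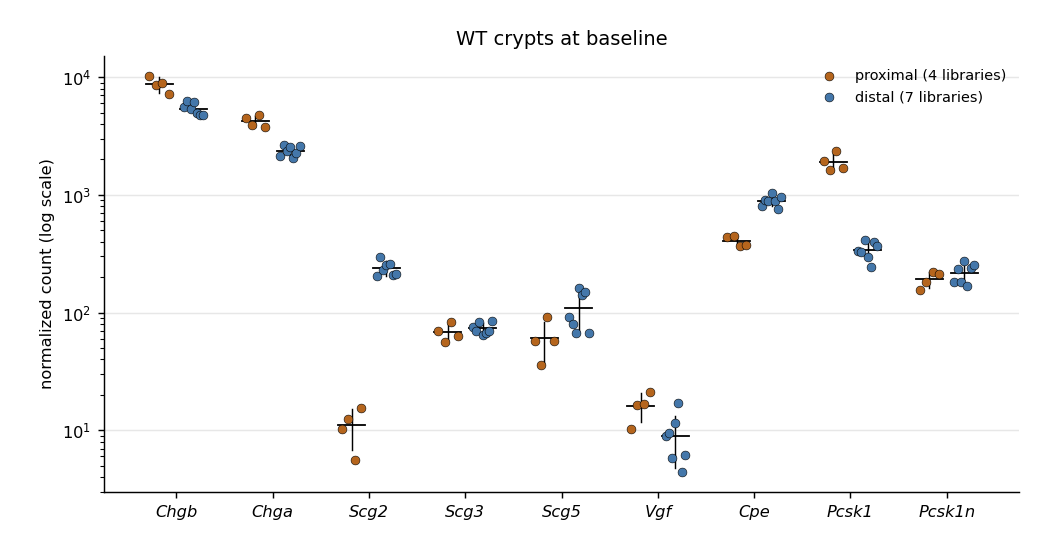
Normalized counts (log scale) of the granins and processing genes in WT crypts of the proximal (4 libraries) and distal (7 libraries) colon; points are libraries, the horizontal line is the mean and the vertical line the SD. *Scg2* lies near 11.0 in proximal and 239 in distal crypts, and *Pcsk1* near 1901 and 340, while *Scg3* and *Pcsk1n* overlap.

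Divided by transcript length, the order of the genes differed between the segments below the first pair. In both, *Chgb* came first (normalized count per kilobase 3177 in proximal and 1976 in distal WT crypts) and *Chga* second (2263 and 1262), each library placing them in that order. *Pcsk1* came next in proximal crypts at 377 per kilobase, above *Cpe* at 194, in each of the 4 libraries. In distal crypts *Cpe* came next at 422, and *Pcsk1n* (99.9), *Scg2* (94.9), *Scg5* (89.8) and *Pcsk1* (67.4) followed as neighbours whose ranges over libraries overlap. *Scg2* was at 4.37 per kilobase in proximal crypts, next to *Vgf* at 5.72, and these ranges also overlap. *Pcsk2* had at most 3 reads in any of these 11 libraries, and 0 in 7 of them.

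Other genes of the pathway are given beside the 42.1% of all genes called between segments, a share which the granule genes were near. Of 12 processing enzymes tested that are not members, 9 were called higher and 2 lower in distal crypts (median log2 change 0.43, against 0.005 over all genes). On the log2(normalized count + 1) scale, the convertase *Pcsk5* had a change of -10.03 and its relative *Pcsk6* of 5.45, and *Pam*, which amidates peptides, of 1.56. Other calls among these enzymes included *Cpm* (0.92), *Pcsk4* (0.68), *Cpd* (0.55), *Furin* (0.30), *Mbtps1* (0.23) and *Qpctl* (0.19), all higher, and *Pcsk7* (-0.27). Of 11 granule genes, 2 were called higher (*Hid1* at 1.33 and *Cadps2* at 0.60) and 3 lower (*Ptprn2* at -0.78, *Slc18a1* at -0.57 and *Ccdc186* at -0.26), with a median of -0.19. Of 9 hormone precursors, *Insl5* (4.47), *Pyy* (2.15) and *Tac1* (2.13) were called higher, and *Nts* (-9.55), *Sct* (-3.49), *Sst* (-1.63), *Cck* (-1.38) and *Gcg* (-0.50) lower, with a median of -0.50.

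Since *Pcsk1* and *Scg2* changed in opposite directions along the colon, their ratio within a library was also taken. The ratio is free of the size factor, and both genes are among those by which the segments differ. It was 25.3 to 421 in the 8 proximal libraries and 0.578 to 2.65 in the 33 distal libraries other than the library labelled distal *Mtg16*-/- replicate 2. In that library it was 32.7. Among those distal libraries it was 0.578 to 1.90 in the 14 crypt libraries without DSS, 1.04 to 2.39 in the DSS crypts and 0.768 to 2.65 in tumors. The ratio was examined after the data were seen.

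**Figure D2:**
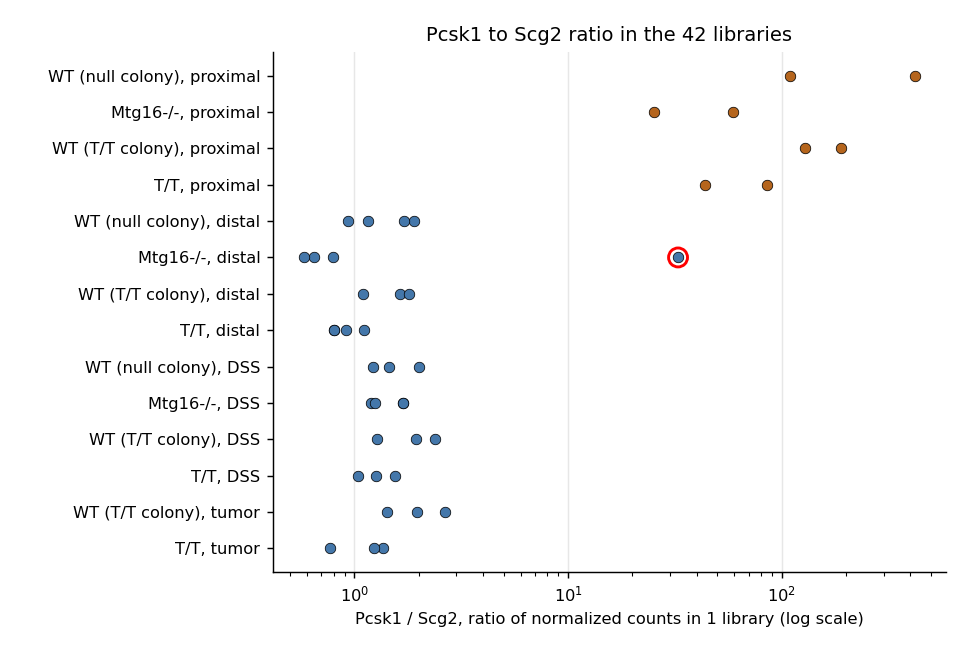
Ratio of the normalized counts of *Pcsk1* and *Scg2* in each of the 42 libraries (log scale), by condition; each point is 1 library and the red ring marks the library labelled distal *Mtg16*-/- replicate 2. Proximal libraries lie at 25.3 or more and distal libraries at 2.65 or less, except the ringed library at 32.7.

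In distal crypts without injury, the granins *Chga*, *Chgb* and *Scg3* were higher in *Mtg16*-/- mice than in WT littermates (4 and 4 libraries). *Chgb*, the most abundant of these genes per length, was at 6345, 5110, 4913 and 4857 in WT libraries and at 15125, 18001, 11177 and 15348 in *Mtg16*-/- libraries. Every *Mtg16*-/- library lay above every WT library, and the log2 change was 1.48 ± 0.15 (limma, adjusted p = 0.0123), a fold of 2.79. *Chga*, with means of 2425 ± 252 and 7159 ± 2089 (n = 4 each), changed by 1.52 ± 0.19 (adjusted p = 0.0201). *Scg3*, a granin that tethers chromogranin A to the granule membrane, was at 65.6, 68.3, 71.3 and 86.4 in WT and 199, 151, 165 and 251 in *Mtg16*-/- libraries, a change of 1.36 ± 0.20 (adjusted p = 0.0483). *Scg5* (68.7 to 166 in WT and 176 to 296 in *Mtg16*-/-, change 0.82), *Pcsk1n* (1.23, adjusted p = 0.0635) and *Vgf* (4.54 to 17.4 and 17.2 to 58.6, change 1.56) did not pass. The first 3 of 9 genes were called higher and none lower, beside 0.239% of all genes called higher. All 9 had a positive change, with a median of 1.23 against -0.005 over all genes. For 6 genes the groups did not overlap, all higher, beside 2.58% of all genes. edgeR called 2 of the 9 higher (0.210% of all genes) and DESeq2 5 (1.25%). The libraries carry 2 identifier numbers, each with both genotypes. With that number as a covariate *Chgb* alone stayed called (adjusted p = 0.0156, against 0.0509 for *Chga* and 0.0723 for *Scg3*), and with a block on replicate number none did (lowest adjusted p 0.114). With no filter on low values *Scg3* had an adjusted p of 0.0701. With limma, leaving out WT replicate 2, 3 or 4 or *Mtg16*-/- replicate 1 or 4 left no member called. Leaving out WT replicate 1 left 1 call and *Mtg16*-/- replicate 3 left 2, while over all 8 of these fits the log2 change of *Chgb* stayed between 1.38 and 1.61.

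The library labelled *Mtg16*-/- replicate 2 stood apart in the genes that differ by segment. *Scg2* was at 262, 267, 216 and 219 in WT, and at 756, 46.1, 588 and 787 in *Mtg16*-/- replicates 1 to 4. Replicate 2 was thus below all WT libraries and the other 3 above them. *Pcsk1* was at 304, 250, 411 and 373 in WT, and at 488, 1506, 466 and 455 in *Mtg16*-/- libraries, where replicate 2 was the highest. *Cpe* was at 1062, 917, 779 and 990 in WT, and at 2296, 984, 1936 and 2720 in *Mtg16*-/- libraries, where only replicate 2 fell within the WT range. With all 4 libraries the log2 changes were 0.57 ± 0.83 for *Scg2* (adjusted p = 1.00), 0.93 ± 0.38 for *Pcsk1* (adjusted p = 1.00) and 1.00 ± 0.29 for *Cpe* (adjusted p = 0.419).

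Without that library (3 and 4 libraries), 6 of 9 genes were called higher, beside 0.969% of all genes. edgeR (1.08% of all genes higher) and DESeq2 (1.73%) also called 6. *Scg2* rose by 1.55 ± 0.15 (limma, adjusted p = 0.00380), from 241 ± 27.4 (n = 4) to 710 ± 107 (n = 3). *Cpe* rose by 1.3 ± 0.15 (adjusted p = 0.00568), from 937 ± 121 to 2317 ± 393. *Pcsk1n* was at 283, 173, 246 and 260 in WT libraries and 569, 522 and 727 in the 3 *Mtg16*-/- libraries, a rise of 1.34 ± 0.20 (adjusted p = 0.0174). The calls of *Chga* (1.35 ± 0.13, adjusted p = 0.00379), *Chgb* (1.38 ± 0.14, adjusted p = 0.00417) and *Scg3* (1.47 ± 0.20, adjusted p = 0.0141) stood as well. Groups without overlap were 8, all higher, beside 4.26% of all genes. *Pcsk1*, whose product is the target of the inhibitor encoded by *Pcsk1n*, had a change of 0.51 (95% confidence interval 0.11 to 0.92, adjusted p = 0.498), *Scg5* of 0.75 (adjusted p = 0.845) and *Vgf* of 1.21 (adjusted p = 0.653). *Pcsk2* had 1 read in 1 *Mtg16*-/- and 1 read in 1 WT library, and 0 in the other 6.

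**Figure D3:**
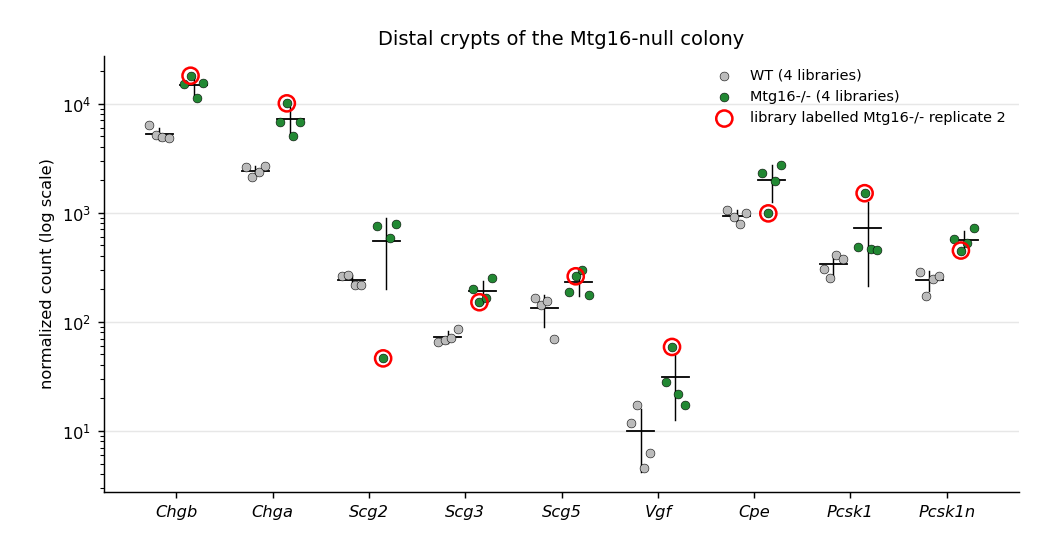
Normalized counts (log scale) in distal crypts of the *Mtg16*-/- colony, WT (4 libraries) and *Mtg16*-/- (4 libraries); points are libraries, the horizontal line is the mean, the vertical line the SD, and the red ring marks the library labelled *Mtg16*-/- replicate 2. In the ringed library *Scg2* (46.1) lies below and *Pcsk1* (1506) above all other libraries of the plot, while *Chgb* and *Chga* lie above WT in all 4 *Mtg16*-/- libraries.

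The enteroendocrine markers moved with these genes. Their sum was 1255 to 1473 in the WT libraries and 3792 to 4591 in the *Mtg16*-/- libraries, all 9 markers had a positive change and 2 were called. Without the library labelled replicate 2 the *Mtg16*-/- sum was 4096 to 4591, and 8 markers were called. Their part in the rise of the granins was not tested. The neuronal markers summed to 52 to 77 in WT and 37 to 178 in *Mtg16*-/- libraries, and the glial markers to 28 to 31 and 17 to 29. Without that library the *Mtg16*-/- sums were 150 to 178 for neurons, where 1 of the 3 markers tested (*Elavl3*) was called higher, and 17 to 23 for glia. The granule gene *Cadps*, which primes dense-core granules for release, was higher by 1.55 (adjusted p = 0.0170), the single call among 11 granule genes (median 0.42), and no granule gene was called when any one of the other 7 libraries was left out. Without the library labelled replicate 2, *Ptprn* (1.20) joined it (median 0.37 of 11), and *Pyy* (1.55), *Sct* (1.42) and *Insl5* (1.12) were called among 8 hormone precursors (median 1.10), of which none had been called with it (median 1.14 of 9). Of the 12 processing enzymes that are not members, which most cells use, none was called with limma and 11 had a negative change (median -0.14). Without that library none of 11 was called, and 8 had a negative and 3 a positive change (median -0.07).

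In proximal crypts, *Mtg16*-/- and WT were compared with 2 libraries each, and an exact permutation test cannot go below p = 0.333. None of 9 genes was called with limma, beside 0.0645% of all genes, and 5 had an unadjusted p under 0.05. *Cpe* was at 400 and 403 in WT and at 761 and 975 in *Mtg16*-/- libraries, a log2 change of 1.10 ± 0.18 (adjusted p = 0.224), the smallest adjusted p of the 9. *Scg2* was at 6.01 and 16.5 in WT and 24.6 and 52.9 in *Mtg16*-/- libraries (1.74 ± 0.69). *Pcsk1* was the only gene of the 9 with a negative change, at 2530 and 1801 in WT and 1448 and 1336 in *Mtg16*-/- crypts (-0.62 ± 0.18, adjusted p = 0.621). *Chga* overlapped, at 5163 and 4059 in WT and 5068 and 9237 in *Mtg16*-/- libraries, and *Chgb* did not (9535 and 7612, then 10197 and 16216). *Pcsk1n* (225 to 238, then 316 to 562, change 0.86), *Scg3* (67.2 to 89.3, then 110 to 155, change 0.74), *Vgf* (18.0 to 22.7, then 22.4 to 52.9, change 0.74) and *Scg5* (61.0 to 98.8, then 98.8 to 105, change 0.39) had positive changes. For 6 higher genes and 1 lower gene the groups did not overlap, though those of *Scg5* nearly met, beside 17.5% and 18.1% of all genes. The median change was 0.74, against 0.003 over all genes, and 0.43 without *Mtg16*-/- replicate 2. Over the 4 fits that left out 1 library, the change ran from 0.04 to 0.73 for *Scg5*, from 0.14 to 1.34 for *Vgf*, from 0.15 to 1.01 for *Chga*, from 0.26 to 0.93 for *Chgb*, from 0.45 to 1.28 for *Pcsk1n* and from 1.08 to 2.41 for *Scg2*, and that of *Pcsk1* from -0.86 to -0.37. In these libraries the enteroendocrine markers summed to 1685 and 2148 in WT and 2761 and 4060 in *Mtg16*-/- libraries. Smooth muscle markers summed to 2764 in *Mtg16*-/- replicate 1 and to 44 to 71 in the other 3 libraries. None of 11 processing enzymes (median 0.09), 11 granule genes (0.07) or 9 hormone precursors (0.75) was called with limma.

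Proximal T/T crypts (2 and 2 libraries) gave changes of the same signs, also without calls in the fit that has no block. In that fit none of 9 genes was called with limma, beside 0.232% of all genes, and 6 had an unadjusted p under 0.05. With a block on replicate number limma called *Chga* (adjusted p = 0.0263) and *Chgb* (adjusted p = 0.0359), beside 1.10% of all genes. *Chga* was at 4386 and 3787 in WT and at 7393 and 5978 in T/T libraries, a log2 change of 0.71 ± 0.13 (adjusted p = 0.134). *Cpe* was at 426 and 434 in WT and at 668 and 659 in T/T libraries (0.62 ± 0.12, adjusted p = 0.151). *Chgb* was at 10007 and 8220, then 14611 and 11909 (0.54 ± 0.14, adjusted p = 0.238). *Scg2* (10.1 and 12.1, then 20.1 and 28.2, change 1.04) and *Scg3* (53.9 to 68.3, then 110 to 111, change 0.85) were also without overlap, as were *Scg5* (0.82), *Vgf* (1.18) and *Pcsk1n* (0.50). *Pcsk1*, at 1897 and 1557 in WT and 1717 and 1236 in T/T, was the gene with a negative change (-0.24 ± 0.18). Over the 4 fits that left out 1 library, the change of *Pcsk1* ran from -0.47 to -0.00. That of *Scg5* ran from 0.47 to 1.17, of *Vgf* from 0.88 to 1.48 and of *Pcsk1n* from 0.32 to 0.67. In all, 8 genes were without overlap and higher, beside 22.6% of all genes. The median was 0.71, against -0.009 over all genes, and the enteroendocrine markers summed to 1441 and 1871 in WT and to 2482 and 2911 in T/T. None of 11 processing enzymes (median -0.05), 11 granule genes (0.06) or 9 hormone precursors (0.55) was called with limma.

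In distal T/T crypts (4 and 3 libraries) the changes were smaller than the spread allows to call. None of 8 genes was called with limma, edgeR or DESeq2, beside 0.0369% of all genes with limma and 0.393% with DESeq2, and 4 had an unadjusted p under 0.05 with limma. All 8 had an adjusted p of 0.863 (limma). *Pcsk1n* was at 170, 217 and 167 in WT and 384, 279, 456 and 238 in T/T libraries, which do not overlap (0.83 ± 0.24). *Chga* was at 2001, 2504 and 2187 in WT and 3636, 3133, 4711 and 2635 in T/T libraries (0.63 ± 0.19), and T/T replicate 3 was the highest. *Cpe* (755 to 850, then 943 to 1524, change 0.51), *Scg5* (61.8 to 86.6, then 88.8 to 150, change 0.60) and *Scg3* (65.6 to 76.7, then 78.6 to 132, change 0.38) did not overlap either. *Scg2* did (191 to 279, then 250 to 396, change 0.48). The untested *Vgf* was at 5.32 to 8.82 in WT and 6.67 to 16.1 in T/T libraries. The 95% confidence interval of *Chgb* ran from -0.03 to 1.07 and that of *Pcsk1*, again the gene with a negative change, from -0.68 to 0.20. These 5 genes without overlap, all higher, stand beside 4.39% of all genes. The median was 0.52, against -0.010 over all genes. The enteroendocrine markers summed to 1095 to 1472 in WT and 1624 to 2451 in T/T libraries. None of 11 processing enzymes (median 0.08), 11 granule genes (0.25) or 8 hormone precursors (0.38) was called with limma.

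**Figure D4:**
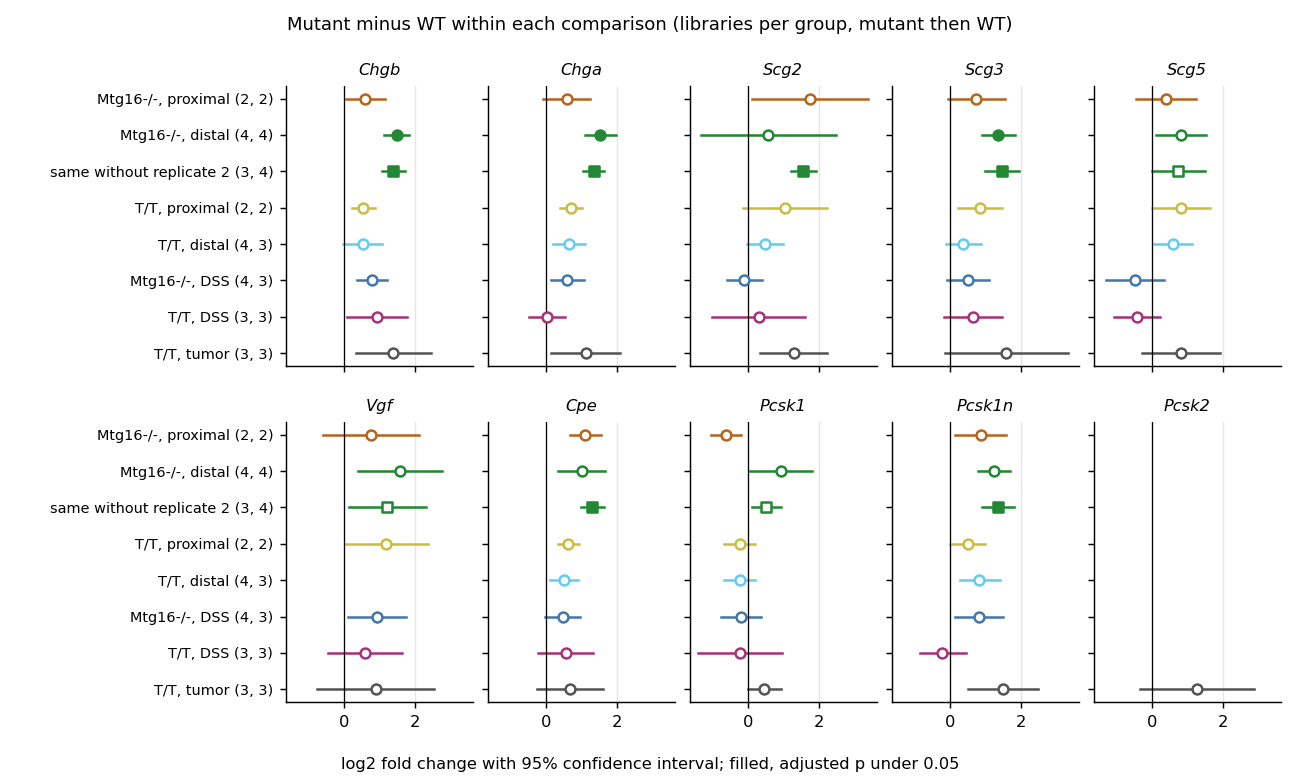
Log2 fold change with its 95% confidence interval, mutant minus WT, for each granin and processing gene in each comparison (mutant and WT libraries in parentheses); filled symbols have an adjusted p under 0.05 and squares leave out the library labelled distal *Mtg16*-/- replicate 2. In these fits, which have no block on replicate number, filled symbols stand only in the distal *Mtg16*-/- comparison without DSS, where *Scg2* moves from 0.57 to 1.55 when that library is left out.

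The differences between these effects were themselves tested from the limma estimates, adjusted over all genes. None of the 9 genes differed between the segments in *Mtg16*-/- mice (0.0149% of all genes, and 0.0451% without the library labelled replicate 2). None of 8 differed between the segments in T/T mice (0.0153%), or between the colonies in distal crypts (0%, and 0.0149% without that library). The smallest unadjusted p between segments was that of *Pcsk1* in *Mtg16*-/- mice, -0.62 in proximal and 0.93 in distal crypts, a difference of -1.55 ± 0.42 (limma estimates, adjusted p = 0.932). Without the library labelled replicate 2 this difference was -1.13 ± 0.25 (adjusted p = 0.265). Between colonies, the difference without that library was 1.07 ± 0.26 for *Scg2* (adjusted p = 0.822) and 0.71 ± 0.23 for *Chga* (adjusted p = 0.958).

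After DSS, the chromogranins of *Mtg16*-/- crypts were again above WT in each library (4 and 3 libraries). With limma and no pairing none was called, and *Chgb* was called when libraries of the same replicate number were taken as pairs, and by DESeq2. *Chgb* was at 5823, 4750 and 7354 in WT and at 8509, 12279, 10081 and 10015 in *Mtg16*-/- libraries, without overlap (0.79 ± 0.19, adjusted p = 0.0944). *Chga* was at 3585, 2060 and 3285 in WT and at 4540, 3918, 4041 and 5152 in *Mtg16*-/- libraries, also without overlap (0.60 ± 0.21, adjusted p = 0.246). *Scg2* did not share the change, at 231, 261 and 326 in WT and 242, 306, 239 and 226 in *Mtg16*-/- libraries (-0.10, 95% confidence interval -0.58 to 0.38). None of 9 genes was called with limma (0.629% of all genes) or edgeR (0.601%), and 4 had an unadjusted p under 0.05 with each. Libraries of the same replicate number deviated together here, so that the paired fit, with the number as a block, stands beside these values. *Mtg16*-/- replicate 4 has no WT library of its number and adds nothing to the blocked changes. The slope of log2 level on log2 transcript length was -0.0831, 0.144 and 0.0829 in WT replicates 1 to 3. In *Mtg16*-/- replicates 1 to 4 it was -0.158, 0.0847, -0.000836 and -0.07. In it 3 genes were called higher, beside 5.72% of all genes. They were *Chgb* (0.79, adjusted p = 0.0229), *Cpe* (0.48, adjusted p = 0.0388) and *Pcsk1n* (0.74, adjusted p = 0.0443), while *Chga* had 0.52 (adjusted p = 0.0508). DESeq2 called *Chgb* alone, beside 3.37% of all genes called higher. *Pcsk1n* (135 to 318 in WT and 294 to 452 in *Mtg16*-/- libraries), *Cpe* (770 to 1300 and 1129 to 1706), *Scg5* (108.5 to 157 and 65.1 to 184, change -0.47) and *Pcsk1* (283 to 526 and 291 to 404, change -0.19) overlapped. *Scg3* (83.2 to 119 and 123 to 192, change 0.52) and *Vgf* (16.4 to 20.5 and 24.8 to 50.7, change 0.93) did not, and with *Chga* and *Chgb* made 4 higher genes without overlap, beside 6.18% of all genes. The median change was 0.52.

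The DSS effect on the genotype difference was tested for the same 9 genes. None differed with all libraries (0% of all genes), and without the library labelled distal *Mtg16*-/- replicate 2 only *Scg2* did, by -1.65 ± 0.26 (-0.10 after DSS and 1.55 without, limma estimates, adjusted p = 0.0136), beside 0.170% of all genes. These DSS estimates are without the block on replicate number. With it, an alternative chosen after seeing the data, none differed with all libraries (0.273% of all genes), and 3 did without that library (1.71%), *Scg2* by -1.60 (adjusted p = 0.00319), *Cpe* by -0.82 (adjusted p = 0.0319) and *Chga* by -0.82 (adjusted p = 0.0331). In T/T mice none of 8 differed (0.0604% of all genes). The distal minus proximal score of *Mtg16*-/- crypts after DSS was 3.00 to 4.15, against 5.85 to 6.58 in WT crypts after DSS. It was 3.10 to 4.82 in distal tumors and -9.89 to -7.41 in proximal libraries. The proximal genes of the score include *Pcsk5* and *Nts*, which were called higher in this comparison, so the score is not a measure of segment alone. *Scg2* and *Cpe* are higher and *Pcsk1* lower in distal WT crypts. The part of the score's difference in the values of *Scg2* was not tested. Myeloid markers summed to 849 to 3189 in WT and 4777 to 15227 in *Mtg16*-/- libraries, and enteroendocrine markers to 1222 to 1694 and 2416 to 2754. Among the other genes of the pathway, *Pcsk5* (2.85), *Cck* (1.79), *Ghrl* (2.20) and *Nts* (3.6) were called higher and *Cpm* (-2.06) lower, with medians of -0.05 over 12 processing enzymes, -0.11 over 11 granule genes and 0.80 over 9 hormone precursors, against -0.002 over all genes.

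In T/T crypts after DSS (3 and 3 libraries, where an exact permutation test cannot go below p = 0.1), no gene of the 9 was called with limma, edgeR or DESeq2, and all groups overlapped, where 13.7% of all genes did not. Limma and edgeR called 0% of all genes and DESeq2 2.45%. *Chgb* alone had an unadjusted p under 0.05, at 3085, 3256 and 6554 in WT and 7265, 10377 and 5992 in T/T libraries (0.93, 95% confidence interval 0.09 to 1.76). WT replicate 3 was the highest WT library in *Chgb*, *Scg2* (124, 107 and 341 in WT), *Cpe* (903, 757 and 1510) and *Pcsk1* (297, 208 and 437). *Chga* was at 3976 to 4148 in WT and 3247 to 5472 in T/T libraries (0.02), and the other changes were 0.65 for *Scg3*, 0.58 for *Vgf*, 0.55 for *Cpe*, 0.30 for *Scg2*, -0.21 for *Pcsk1n*, -0.22 for *Pcsk1* and -0.42 for *Scg5*, with a median of 0.30 against 0.032 over all genes. That median was 0.09 without WT replicate 1, 0.03 without WT replicate 2, 0.04 without T/T replicate 2 and 0.48 without T/T replicate 3, where the medians over all genes were 0.039, 0.045, 0.049 and -0.002. The slope of log2 level on log2 transcript length was 0.151 in WT replicate 3 and -0.133 and -0.224 in replicates 1 and 2, and ran from -0.192 to 0.31 in T/T libraries. The enteroendocrine markers summed to 1186 to 1479 in WT and 2061 to 2243 in T/T libraries, the myeloid markers to 462.5 to 1065 and 1426 to 2067, and the distal minus proximal score was 5.73 to 6.73 and 2.21 to 4.08. The part of these in the values was not tested.

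The same WT libraries were compared with WT distal crypts without DSS (3 and 3 libraries of the T/T colony), a comparison that shares its libraries with those of the T/T crypts. The identifiers of the libraries without DSS open with 5094 and those after DSS with 5740, so the treatment and whatever that number marks cannot be told apart. *Chga* rose from 2325, 2873 and 2527 to 3657, 3844 and 3929, without overlap (0.57 ± 0.12, limma, adjusted p = 0.0177). *Vgf* rose from 9.70, 10.1 and 6.15 to 20.1, 32.0 and 16.3, also without overlap (1.28 ± 0.37, adjusted p = 0.0393). These were the 2 genes of 9 called, both higher, beside 14.0% of all genes called higher and 21.6% lower, and the 2 without overlap, beside 26.0% of all genes. Of the other granins, *Chgb*, *Scg2*, *Scg3* and *Scg5* were not called. *Chgb* was at 6134, 6681 and 5705 without DSS and at 2838, 3019 and 6207 after it (-0.71, adjusted p = 0.101), and *Scg2* at 222, 320 and 244, then 114, 99.2 and 323 (-0.74, adjusted p = 0.227). *Pcsk1* (352 to 440, then 193 to 414), *Cpe* (877 to 976, then 702 to 1430), *Scg3* (75.3 to 88.6, then 58.4 to 94.7), *Scg5* (71.4 to 101, then 77.5 to 112) and *Pcsk1n* (193 to 250, then 236 to 299) overlapped. In *Chgb* and *Scg2*, DSS WT replicate 3 was near the libraries without DSS and the other 2 were below them all.

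Without DSS WT replicate 3 (2 and 3 libraries), 5 genes were called, 2 higher and 3 lower, beside 32.2% and 34.7% of all genes. This fit was singled out after the values of *Chgb* and *Scg2* in that library were seen. Its calls of lower genes are therefore a description, and they were not made with all libraries. *Chgb* fell by 1.07 on the log2 scale (adjusted p = 1.57e-05), *Scg2* by 1.27 (adjusted p = 0.000864) and *Pcsk1* by 0.73 (adjusted p = 0.0104), while *Chga* (0.55) and *Vgf* (1.48) stayed higher. Leaving out any one of the other 5 libraries gave no call with limma. The length slopes were 0.145 to 0.163 without DSS and -0.216, -0.309 and 0.07 in DSS replicates 1 to 3. With each library's length trend removed, *Chga* (adjusted p = 0.0136) and *Vgf* (adjusted p = 0.0285) were the 2 calls, beside 22.3% of all genes called higher. Of 8 hormone precursors, 7 were called higher with all libraries, *Cck* (2.33), *Ghrl* (1.71), *Sct* (1.39), *Sst* (1.19), *Insl5* (1.02), *Pyy* (0.94) and *Gcg* (0.81), with a median of 1.10 against 0.004 over all genes. Of 11 granule genes, *Syt7* (1.17), *Ptprn2* (1.09), *Rab3a* (0.83) and *Hid1* (0.65) were called higher and *Ccdc186* (-2.39) lower (median 0.60). Of 12 processing enzymes, *Pcsk5* (6.27), *Qpctl* (0.49) and *Furin* (0.48) were called higher and *Cpm* (-1.02) lower (median 0.30). Without the baseline WT replicate 2 none of the genes of these 3 lists was called, and 1 gene of all 13525 tested was. Leaving out another baseline library or DSS replicate 1 or 2 left 4 to 6 hormone precursors and 0 to 4 granule genes called. The enteroendocrine markers summed to 1265 to 1690 without and 1091 to 1401 after DSS.

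**Figure D5:**
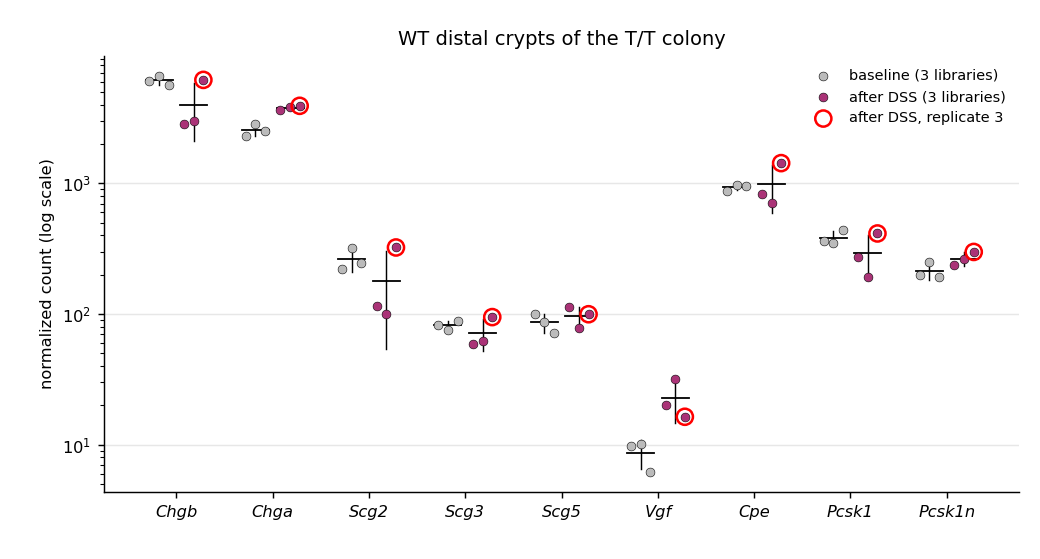
Normalized counts (log scale) in distal WT crypts of the T/T colony without DSS (3 libraries) and after DSS (3 libraries); points are libraries, the horizontal line is the mean, the vertical line the SD, and the red ring marks DSS WT replicate 3. *Chga* and *Vgf* separate the groups, while *Chgb* and *Scg2* of the ringed library (6207 and 323) lie among or above the libraries without DSS.

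In tumors (3 T/T and 3 WT), all 10 genes were tested and all 10 had a positive change, without a call. Limma called 0% of all genes, and 4 of the 10 had an unadjusted p under 0.05. edgeR called none of them (0% of all genes) and DESeq2 none (0.154%). *Pcsk1n* was at 75.8, 28.2 and 71.4 in WT and at 133, 211 and 128 in T/T tumors (1.50 ± 0.42, adjusted p = 0.998). *Chgb* was at 2238, 604 and 1425 in WT and at 3155, 4677 and 2318 in T/T tumors (1.38 ± 0.46). *Scg2* was at 130, 54.6 and 79.2, then 163, 328 and 155 (1.28 ± 0.41). These and *Pcsk1* (183, 144 and 155, then 221, 252 and 192) were the 4 genes whose groups did not overlap, beside 2.98% of all genes. *Chga* (284 to 870, then 823 to 1634, change 1.11), *Scg3* (7.04 to 63.2, then 47.9 to 56.7, change 1.58) and *Scg5* (12.3 to 41.1, then 37.8 to 55.5, change 0.81) overlapped. The median change was 1.19, against -0.002 over all genes, and 0.78 without WT replicate 2. None of 13 processing enzymes (median -0.04), 12 granule genes (0.08) or 8 hormone precursors (0.74) was called with limma.

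Tumors were taken whole, and their libraries differed in other tissue. *Pcsk2*, rare in crypts, was at 10.5, 4.40 and 3.10 in WT and 8.79, 35.1 and 9.06 in T/T tumors, and *Vgf* at 14.7, 4.40 and 15.5, then 8.79, 46.5 and 18.1. T/T replicate 2 was the highest in both, and in *Cpe* (1962, against 460 to 920 in the other 5). It also had the highest sums of neuronal markers (1639, against 538 to 835), glial markers (483, against 169 to 232) and smooth muscle markers (93607, against 12598 to 25937). WT replicate 2 was the lowest in the granins *Chga*, *Chgb*, *Scg2*, *Scg3* and *Scg5*. Without T/T replicate 2 the change of *Chgb* was 1.12, and without WT replicate 2 it was 0.86. The enteroendocrine markers did not separate the groups (1543 to 2997 in WT and 1603 to 1984 in T/T), and the part of the other tissue in the members' values was not tested.

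Finally, the genes most alike in their library-to-library deviations were found by Pearson correlation over the 42 libraries, after each library's own group mean was subtracted, among genes with a mean of at least 100 in each mutant comparison (10404 other genes). This is a description, since the libraries share tables and depth. With all libraries, *Chga* was most like *Cacna1h* (0.81) and *Pcsk1n* (0.79), *Chgb* like *Nr5a2* (0.79) and *Tph1* (0.78), the enzyme that begins serotonin synthesis in enterochromaffin cells, and *Scg2* like *Itih5* (0.90). *Scg3* was most like *Hao2* (0.80), *Pcsk1* like *Pgrmc1* (0.90) and *Cpe* like *Cyp2d12* (0.81), while *Scg5* (0.57 with *Tmppe*) and *Vgf* (0.69 with *Tsc22d4*) had no gene as close. Without the library labelled distal *Mtg16*-/- replicate 2, the first gene was again *Itih5* for *Scg2* (0.82) and *Hao2* for *Scg3* (0.81). It became *Pcsk1n* for *Chga* (0.90), *Disp2* for *Chgb* (0.80), *Sppl2a* for *Pcsk1* (0.90), *Sned1* for *Cpe* (0.84), *Zan* for *Scg5* (0.60) and *Rubcn* for *Vgf* (0.68), and *Pgrmc1* and *Cyp2d12* were no longer among the first 3 genes of *Pcsk1* and *Cpe*.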

How the data were processed

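Crypts or tumors were profiled by poly(A) RNA-Seq. According to the submitters' processing notes, reads were trimmed with fastp 0.20.0 and quantified with Salmon 1.3.0 against mm10 (GENCODE vM21 per the study's methods), and DESeq2 1.26.0 in R 3.6.3 gave 9 tables, 1 per comparison. The deposited values are a signal per gene and library, that is, estimated read counts that the authors summed per gene and divided by size factors within each table. The authors' own fold change and p columns hold their findings and were not used. Per-library columns left unused numbered 0. In 7 tables whole reads were recovered from the steps of the values (tolerance 0.02), and 97 of 97 values of members held in more than 1 such table gave identical reads.

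Groups came from the sample labels. The test was limma 3.58.1 (R 4.3.3) with a trend on log2(normalized count + 1), within each table, for genes whose mean reached 10, and adjusted p-values (Benjamini-Hochberg) under 0.05 were calls. Fold changes are on that scale, which understates changes of low genes. Differences between effects were tested from the estimates and standard errors of the separate fits. Alternatives were edgeR 4.0.16 (quasi-likelihood) and DESeq2 1.42.0 on recovered reads, dropping the filter, adding 0.1 in place of 1 before the log, omission of each library in turn, the replicate number as a block, and the number that opens each library's identifier in the tables, whose meaning the labels do not give, as a covariate. The fits were tested on simulated data. Exact permutation tests were two-sided. All 10 members are named in each comparison, as are the called genes of 3 lists (13 other processing enzymes, 12 granule genes and 10 hormone precursors) and the closest of the 3 genes most alike to each member. The members and lists were chosen with earlier results of these data known. Among comparisons with 3 or more pairs, the correlation of deviations of same-numbered libraries passed 0.1 in every pair only in the DSS comparison of the *Mtg16*-/- colony (0.554, 0.46 and 0.317 for numbers 1 to 3), so there the fit with the number as a block is given beside the fit without it, although the labels do not say what the numbers mark. In distal *Mtg16*-/- crypts the correlations were 0.246, 0.0155, 0.369 and 0.0261.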

Additional observations from a re-analysis of the deposited data

Results flagged for a closer look

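In groups of 4 or more libraries, the highest or lowest library was compared with its neighbor by Dixon's criterion, which flags about 1 group in 20 by chance. Of 39 groups, 4 held such a library. In distal crypts, the library labelled *Mtg16*-/- replicate 2 was far above the others in *Pcsk1* (1506) and far below them in the distal minus proximal score (-7.86). In the WT littermates, replicate 1 was above the others in *Chgb* (6345). In *Mtg16*-/- crypts after DSS, replicate 2 was above the others in *Scg3* (192.3).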

How the results depend on the processing

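In distal *Mtg16*-/- crypts, 3 members were called. The block on replicate number, which the labels do not define as a pairing, gave 0, the identifier's number as a covariate gave 1, the comparison within number 4149 or 5094 gave 0 each, no filter on low values gave 2, and DESeq2 gave 5. Leaving out 1 library gave 0 to 6. Alternatives chosen after seeing the data, without the library labelled replicate 2, gave 6 with the identifier's number as a covariate, 6 with edgeR and 6 with DESeq2. The change of *Scg2* within number 5094, where that library is 1 of 2, was -0.49. The block gave 2 calls in proximal T/T crypts (*Chga* and *Chgb*, 1.10% of all genes) and 3 in *Mtg16*-/- crypts after DSS, where DESeq2 gave 1 and removal of the length trend with the block, chosen after seeing the data, 3. In WT crypts after DSS the block gave 0, and leaving out 1 library gave 0 to 5. The block changed no other count of calls. Leaving out 1 library moved the count of members whose *Mtg16*-/- effect differed after DSS over 0 to 1, and with the replicate block after DSS and without that library 3 differed. Leaving out 1 library turned the direction of uncalled changes. *Scg2* in *Mtg16*-/- crypts after DSS ran from -0.21 to 0.03. In T/T crypts after DSS, *Pcsk1* ran from -0.56 to 0.27, *Pcsk1n* from -0.37 to 0.00, *Chga* from -0.17 to 0.20 and *Scg2* from -0.04 to 0.82. *Cpe* in WT crypts after DSS ran from -0.29 to 0.22. The causes were not tested. Over all alternatives, 924 values of single genes kept their direction and side of the threshold, 53 lost a call, 28 gained one and 10 changed sign. With 2 libraries a group, or 2 in 1 arm after 1 is left out, only large changes can be called, and the lone library of an arm is assumed to vary like the others. In proximal crypts *Scg2*, and in all crypts *Pcsk2* and *Vgf*, rest on few reads.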

Other observations

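The ratio of *Pcsk1* to *Scg2* was also compared between genotypes, a comparison chosen after the data were seen, and no difference passed the threshold. In proximal crypts it was 25.3 to 58.9 in *Mtg16*-/- and 109 to 421 in WT libraries, and 43.9 to 85.4 in T/T and 129 to 189 in WT libraries (exact permutation p = 0.333 each, the smallest that 2 libraries against 2 allow). In distal crypts it was 0.799 to 1.11 in T/T and 1.10 to 1.81 in WT libraries (exact permutation p = 0.0571). Without the library labelled distal *Mtg16*-/- replicate 2 it was 0.578 to 0.792 in *Mtg16*-/- and 0.935 to 1.90 in WT libraries (exact permutation p = 0.0571), and with it the groups overlapped. In tumors it was 0.768 to 1.36 in T/T and 1.42 to 2.65 in WT (exact permutation p = 0.1, the smallest possible). After DSS the exact permutation p was 0.629 for *Mtg16*-/- and 0.2 for T/T. None of the 7 passed after adjustment (lowest adjusted p 0.2 without that library and 0.35 with it).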
